A study of Homo sapiens with 6 samples.

Results

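The genes described here encode the folding machinery of the endoplasmic reticulum (ER) and the unfolded protein response, 33 genes chosen by symbol. All 33 were among the 12227 genes of the deposited table. The measurements are RNA sequencing of PC3, a line established from a human prostate cancer metastasis, in 2 groups of 3 libraries. The first group carried short hairpin RNA (shRNA) against VprBP, which the gene DCAF1 encodes, and is labelled a VprBP knockdown. The second carried control shRNA and is labelled WT. Both groups are the same line grown in DMEM with fetal bovine serum, and the labels give no time after knockdown. They also do not say whether the numbers 1 to 3 stand for hairpins, cultures or repeat libraries, so p-values measure only the spread between these libraries, which may be technical. VprBP recruits substrates to a CRL4 ubiquitin ligase, and histone kinase activity has also been ascribed to it. The comparison asks how transcripts of the ER folding system differ when it is depleted.

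Proteins bound for the cell surface or for secretion enter the ER through the SEC61 channel, are glycosylated, fold with the help of BiP, GRP94, the calnexin and calreticulin lectins and disulfide isomerases, and are returned to the cytosol for degradation if they fail. When unfolded protein accumulates, 3 sensors in the ER membrane respond. IRE1 (ERN1) cuts XBP1 mRNA so that it encodes an active transcription factor, ATF6 is cleaved to release another, and PERK slows translation and favours ATF4. The first pair of pathways is best known for raising chaperone and degradation genes, and the third for amino acid and redox genes. Secretory epithelia, prostate among them, depend on this system.

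The values are gene-level estimated reads multiplied by a factor for each library, with 23029440 to 39633830 estimated reads in the VprBP shRNA libraries and 22981865 to 32293133 in the control shRNA libraries. VprBP shRNA left DCAF1 at 39.9 ± 1.36, against 78.8 ± 0.465 in control shRNA cells (SD, n = 3 each), or 50.6% of the control level. The exact two-sided permutation test gave p = 0.1, the smallest value that 3 libraries against 3 allow. All 5 epithelial markers examined were listed. Of these KRT8 (619 with VprBP shRNA, 378 with control shRNA), KRT18 (693 and 455) and EPCAM (279 and 251) were called higher, CDH1 (323 and 342) was called lower and KRT19 (829 and 825) was not called. Libraries of one group differed by a median of 4.42% to 6.60% per gene, against 15.7% to 17.9% between groups, and VprBP shRNA replicate 3 lay farthest from the others of its group. Of the 14 leukocyte, endothelial and fibroblast markers examined, 3 were listed, CD68, COL1A1 and PECAM1. PECAM1 had means of 23.3 in VprBP shRNA cells and 54.2 in control shRNA cells, and its part in the results below was not tested. Differences were tested with limma on log2(value + 0.5), and a gene was called at a Benjamini-Hochberg adjusted p under 0.05 over all 12227 genes.

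Several of these genes are known for stress elements in their promoters, so the promoter letters are shown first. The ER stress response element (ERSE) was searched as CCAAT, any 9 bases and CCACG, its shorter relative ERSE-II as ATTGG, any 1 base and CCACG, and the unfolded protein response element (UPRE) as TGACGTGG, on both strands, in RefSeq windows of 300 bases (GRCh38.p14) from 250 before to 50 after a transcript start. ATF6 is known to act with the CCAAT-binding factor NF-Y at ERSE, and XBP1 and ATF6 at the other elements. Windows were found for 31 of the 33 genes, 38 windows in all. Those without a window are DERL1 and PDIA3. ERSE was present in 9 of the 38 windows (7 genes), ERSE-II in 3 (3 genes) and UPRE in 2 (2 genes). Overlapping windows of CANX hold the same match, so windows are not separate sites. Among matched windows, the RefSeq start lay 20301 bases from the deposited gene start for 1 CANX window and 25192 bases for PDIA6. Over all 35116 windows 0.0769% held ERSE, 0.0541% ERSE-II and 0.729% UPRE. Since several of these genes are known for such elements, the difference in shares is no result of these data. The stretches around the matches are shown for the genes whose levels are compared most closely below, 5′ to 3′ in the direction of transcription, with motif letters in capitals.
The 3 genes with ERSE-II, of which HYOU1 has this motif at 2 places and a UPRE that overlaps the first, are these.
HYOU1, chr11:119057259-119057408, minus strand: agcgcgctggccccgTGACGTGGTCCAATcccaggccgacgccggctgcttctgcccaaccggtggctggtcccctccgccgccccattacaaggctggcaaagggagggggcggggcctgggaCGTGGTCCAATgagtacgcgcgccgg
HERPUD1, chr16:56932010-56932050, plus strand: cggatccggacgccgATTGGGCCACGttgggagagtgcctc
SDF2L1, chr22:21642099-21642139, plus strand: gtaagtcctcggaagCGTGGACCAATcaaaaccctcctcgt
Next come 5 genes with ERSE, of which HSP90B1 has 2, followed by the UPRE of DNAJC10.
XBP1, chr22:28800588-28800636, minus strand: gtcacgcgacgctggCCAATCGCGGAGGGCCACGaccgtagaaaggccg
HSPA5, chr9:125241376-125241424, minus strand: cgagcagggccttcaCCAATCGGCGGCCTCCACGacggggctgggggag
HSP90B1, chr12:103930201-103930354, plus strand: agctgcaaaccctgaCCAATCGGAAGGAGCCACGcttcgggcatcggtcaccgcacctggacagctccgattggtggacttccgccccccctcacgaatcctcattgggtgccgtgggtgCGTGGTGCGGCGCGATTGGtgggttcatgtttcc
CALR, chr19:12938369-12938417, plus strand: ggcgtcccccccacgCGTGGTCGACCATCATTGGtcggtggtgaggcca
CRELD2, chr22:49918539-49918587, plus strand: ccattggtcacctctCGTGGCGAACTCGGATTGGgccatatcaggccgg
DNAJC10, chr2:182716117-182716154, plus strand: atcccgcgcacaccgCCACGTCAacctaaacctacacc

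The 3 genes with an ERSE-II match all fell with VprBP shRNA, with log2 fold changes of -0.60 for HYOU1, -0.27 for HERPUD1 and -0.27 for SDF2L1. Genes with an ERSE match did not share a direction. CALR, CRELD2 and CANX rose, XBP1 fell, and HSPA5, HSP90B1 and PDIA6 were not called. Outside the list, 11 listed genes had an ERSE-II match, of which 5 rose, 2 fell and 4 were not called. Over the whole table, 33.0% of genes were called higher and 27.8% lower. A search for the ATF4-type element TTGCATCA found it only in HERPUD1 among the genes described here, and in 0.866% of all windows. The palindrome TGACGTCA was in none of the 38 windows, and in 1.85% of all windows. These counts are descriptions of letters in one window per start, and binding was not measured.

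**Figure D1:**
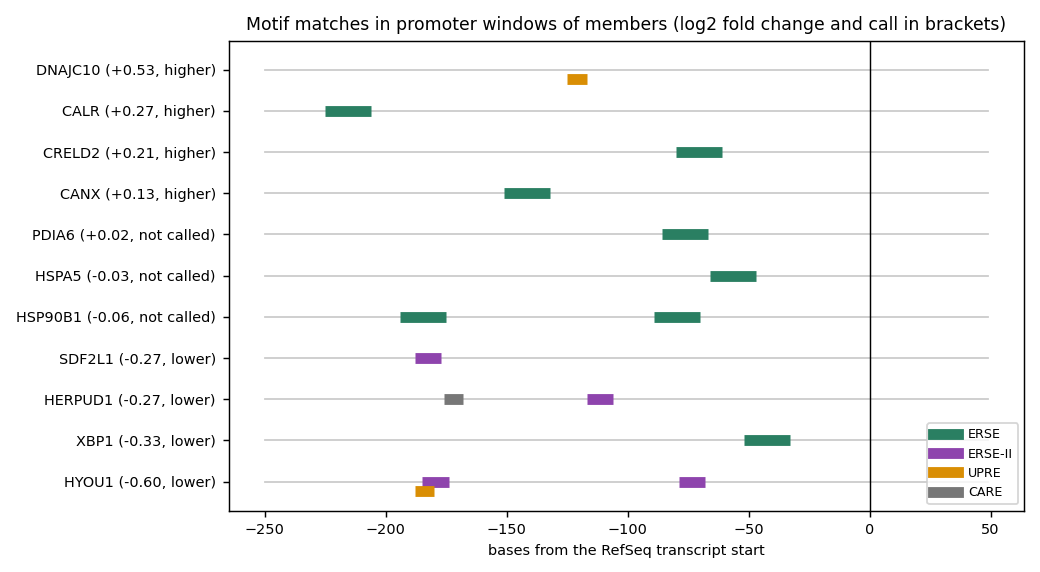
Positions of motif matches from 250 bases before to 50 after the RefSeq transcript start (horizontal axis, bases; line at 0) in the 11 genes with an ERSE, ERSE-II or UPRE match, ordered by log2 fold change of VprBP shRNA over control shRNA. The purple ERSE-II bars lie in HYOU1, HERPUD1 and SDF2L1, all lower, the grey bar in HERPUD1 is the ATF4-type element, and green ERSE bars lie in genes from +0.27 (CALR) to -0.33 (XBP1).

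As a list, the ER genes moved in both directions by small amounts. Of the 33 genes, 15 rose, 8 fell and 10 were not called. Of all listed genes 60.9% were called, 33.0% higher and 27.8% lower. At an adjusted p under 0.05, 0 of the 33 passed a test against a fold of 1.5 (limma treat), and 0 passed it at an unadjusted p under 0.05 or with limma-voom. Over the table, 5.32% of all listed genes passed the adjusted test, 2.42% higher and 2.90% lower. The groups did not overlap for 20 of the 33, 12 higher and 8 lower, against 64.8% of all listed genes, 35.1% higher and 29.6% lower. The median log2 fold change was 0.02 over the 33 and 0.02 over all listed genes, and the median absolute log2 fold change was 0.21 in both. Log2 fold changes ran from -0.60 (HYOU1) to 0.53 (DNAJC10). The share of members called was near that of the whole table, so it is no result about the list, and the values below concern single members.

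Levels between genes can be compared only per transcript length, here as the deposited value per kb of merged exons in GENCODE 29, which is longer than any single transcript of genes with many exon variants. CALR, the lectin chaperone calreticulin, was the most abundant, at 393 per kb in VprBP shRNA cells and 326 per kb in control shRNA cells. HSPA5 (BiP) followed with 194 and 197 per kb, HSP90B1 (GRP94) with 154 and 161 per kb, and P4HB, the classical protein disulfide isomerase, with 144 and 119 per kb, in the same order of groups. HSPA5 and HSP90B1 kept apart in every library, whereas the control values of P4HB, PDIA4 and CANX lay close together, at 119, 117 and 114 per kb. The sensors were far scarcer, with ATF6 at 11.4 and 11.1 per kb and ERN1 at 3.90 and 5.65 per kb in VprBP shRNA and control shRNA cells. SIL1, the nucleotide exchange factor of BiP, was lowest, at 1.09 and 1.12 per kb, and rested on 100 to 182 estimated reads per library. It shares exonic bases on the opposite strand with MATR3. Summed over the 33 genes, the deposited values made up 0.768% to 0.776% of a VprBP shRNA library and 0.733% to 0.750% of a control shRNA library, without overlap between groups. The sum weighs most on the genes with the highest values. Of these, CALR, CANX and P4HB rose and HSPA5 and HSP90B1 were not called, so the sum is no result about the list.

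**Figure D2:**
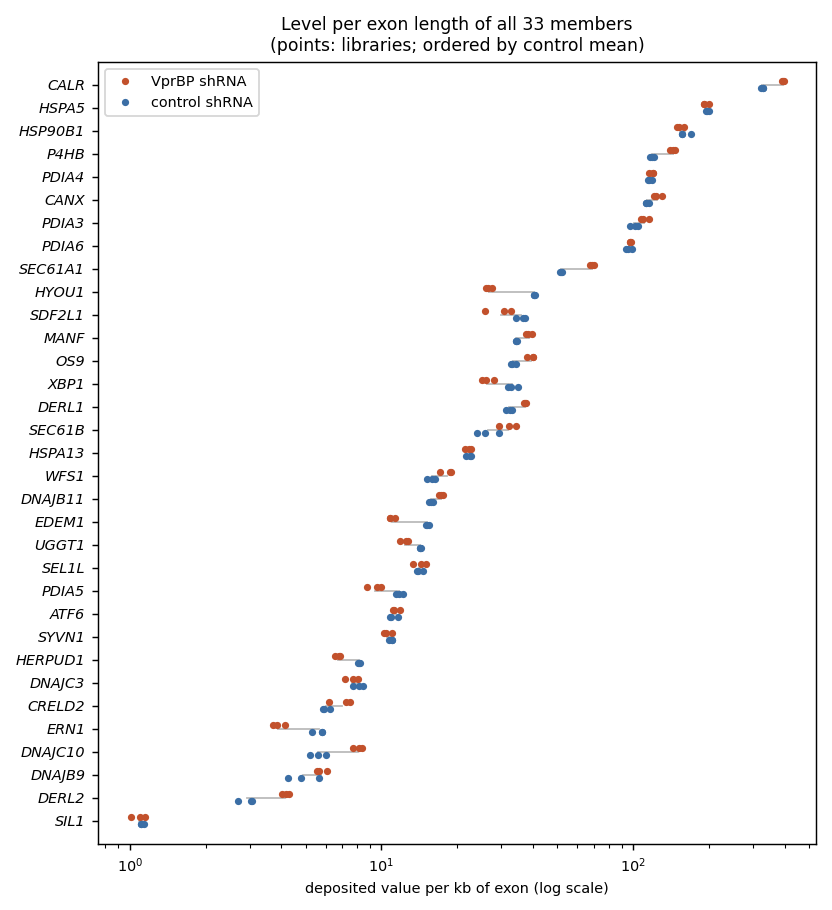
Deposited value per kb of merged exons (log axis) in each of the 3 VprBP shRNA and 3 control shRNA libraries (points) for all 33 genes, ordered from high to low by control mean. Group means span from 1.09 per kb for SIL1 to 393 per kb for CALR, and the red and blue points do not overlap for 20 of the 33 genes, against 64.8% of all listed genes.

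Among the sensors and transcription factors, ERN1 and XBP1 fell and ATF6 was not called. ERN1, which encodes the sensor kinase and endonuclease IRE1, had values of 41.9, 45.0 and 40.1 in the VprBP shRNA libraries and 63.1, 57.7 and 63.1 in the control shRNA libraries. Every VprBP shRNA library lay below every control library, at 0.690 of the control mean (log2 fold change -0.53, SE 0.06, limma adjusted p = 5.69e-07). In bulk RNA, fewer expressing cells and less RNA per cell cannot be told apart. XBP1, the transcription factor made from the mRNA that IRE1 cuts, had values of 78.8, 75.8 and 84.8 with VprBP shRNA and 105, 99.2 and 96.8 with control shRNA. These groups did not overlap either, and XBP1 stood at 0.795 of the control mean (log2 fold change -0.33, SE 0.05, limma adjusted p = 2.34e-05). ATF6, the sensor that is cleaved in the Golgi, had 93.1, 87.6 and 88.8 with VprBP shRNA and 85.9, 91.4 and 85.6 with control shRNA. Its groups overlapped, and the log2 fold change was 0.04, with a 95% interval from -0.06 to 0.13 (limma adjusted p = 0.497).

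XBP1 activity is set by removal of a short run from its mRNA, and a value per gene sums both forms. In the GENCODE 29 transcripts the run that XBP1-201 holds and XBP1-202 lacks is 26 bases long. It is printed in capitals as it begins at base 570 of XBP1-201, with 25 bases on each side. Since the same letters recur at both ends, its place is not unique from the sequence alone, and the version cut after CAG at both ends is given.
XBP1 spliced-out run, chromosome 22, minus strand: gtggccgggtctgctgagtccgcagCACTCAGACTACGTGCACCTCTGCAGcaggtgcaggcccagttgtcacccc
The fall in XBP1 is a fall of the sum, and the share of the spliced form was not measured here. GENCODE 29 also names 1 pseudogene copy of XBP1, so that reads shared with it could move the value. EDEM1, which directs misfolded glycoproteins to degradation and is a well-known XBP1 target, had values of 73.2, 73.4 and 76.8 with VprBP shRNA and 102, 104 and 102 with control shRNA. It lay at 0.725 of the control mean in groups that did not overlap (log2 fold change -0.46, SE 0.04, limma adjusted p = 7.81e-08). DNAJB9, an ER J-protein that represses IRE1 and is itself an XBP1 target, did not fall with it. Its values were 16.1, 17.3 and 15.8 with VprBP shRNA and 13.6, 16.0 and 12.0 with control shRNA, and the groups overlapped through control replicate 2. DNAJB9 was called higher (log2 fold change 0.24, SE 0.10, limma adjusted p = 0.0405), but without control replicate 3 the log2 fold change was 0.15 and the adjusted p 0.210, in a range of adjusted p from 0.00546 to 0.210 over 13 alternatives. The call was also lost without VprBP shRNA replicate 1 or 2 or control replicate 1, and under median-ratio scaling or equal library sums. EDEM1 and DNAJB9 do not stand for XBP1 targets as a set, and XBP1 activity was not tested. Among the other degradation and translocation genes described below, DERL1, DERL2, OS9, SEC61A1 and SEC61B rose. HERPUD1 fell, and SYVN1 and SEL1L were not called.

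BiP itself was not called, while genes that serve it moved both ways. HSPA5, which encodes BiP, the main ER Hsp70 and the standard reporter of ER stress, had values of 746, 747 and 781 with VprBP shRNA and 769.9, 785 and 761 with control shRNA. Its groups overlapped, and the 95% interval of the log2 fold change ran from -0.09 to 0.04 around -0.03 (limma adjusted p = 0.472). HYOU1, the large Hsp70 relative that exchanges nucleotide on BiP and carries the paired ERSE-II matches shown above, showed the biggest fall of the 33. It had 205, 212 and 200.5 with VprBP shRNA and 313, 310.2 and 309.6 with control shRNA, so that VprBP shRNA cells held 0.661 of the control mean with no overlap (log2 fold change -0.60, SE 0.03, limma adjusted p = 2.42e-10). SDF2L1, which holds substrates in the BiP cycle together with ER J-proteins, was 33.6, 36.1 and 28.5 with VprBP shRNA and 40.9, 37.5 and 40.0 with control shRNA. Its fall (log2 fold change -0.27, SE 0.07, limma adjusted p = 0.00468) drew on VprBP shRNA replicate 3, and without that library the log2 fold change was -0.18 (adjusted p = 0.0164).
The J-protein DNAJB11 rose slightly, at 98.5 ± 1.75 with VprBP shRNA against 90.3 ± 1.88 with control shRNA (SD, n = 3 each; limma adjusted p = 0.0124), and lost its call without control replicate 1 (adjusted p = 0.0614). DNAJC3, a J-protein also known as an inhibitor of PERK, averaged 42.7 ± 2.59 and 45.2 ± 2.02 in VprBP shRNA and control shRNA cells and was not called (SD, n = 3 each; limma adjusted p = 0.221). HSPA13, an atypical ER Hsp70, was at 93.0 ± 2.64 and 93.4 ± 2.44 in the same order, and SIL1 at 4.35 ± 0.297 and 4.48 ± 0.0849 (SD, n = 3 each). Neither was called, and the interval for SIL1 was the widest of the list, from -0.32 to 0.24 in log2 fold change.

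**Figure D3:**
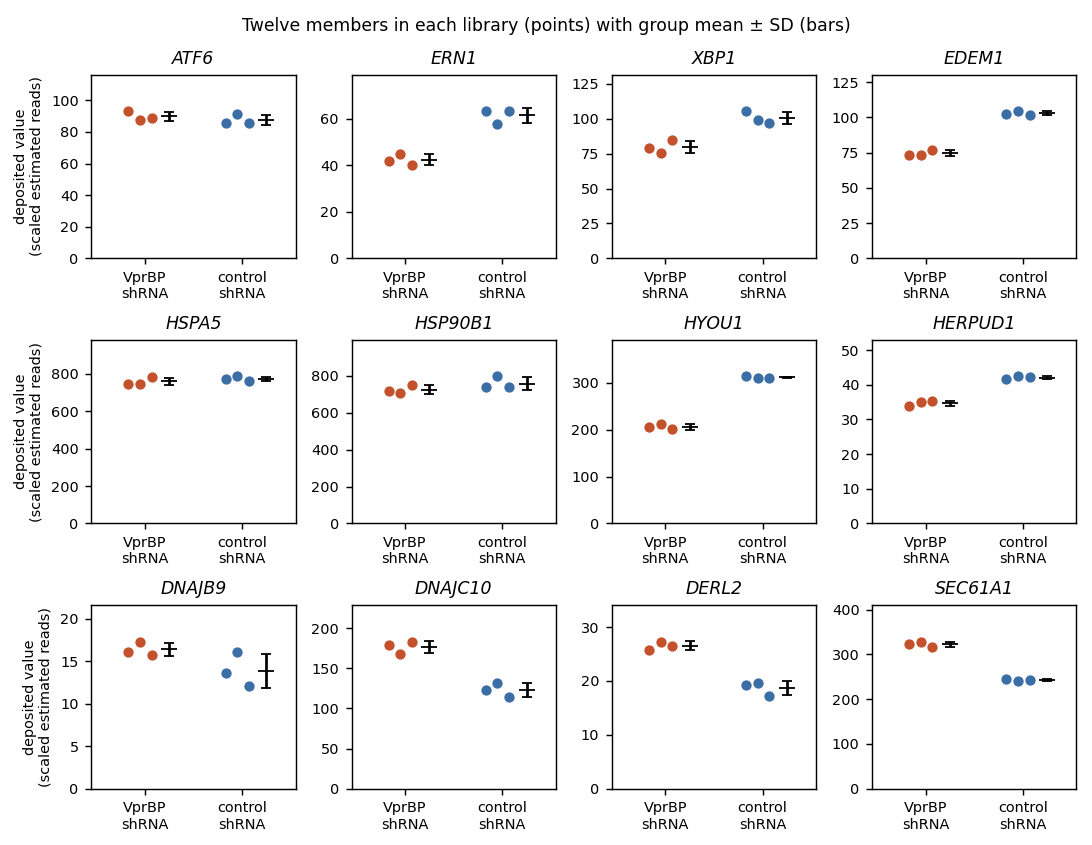
Deposited values (scaled estimated reads, axes from 0) of 12 members in the 3 VprBP shRNA and 3 control shRNA libraries, with mean ± SD beside the points. ERN1, XBP1, EDEM1, HYOU1 and HERPUD1 lie lower with VprBP shRNA, DNAJC10, DERL2 and SEC61A1 lie higher, and ATF6, HSPA5 and HSP90B1 overlap between groups.

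GRP94 and its companions did not move together. HSP90B1, which encodes GRP94, the ER Hsp90 that folds integrins and Toll-like receptors, had values of 716, 704 and 751 with VprBP shRNA and 738, 796 and 737 with control shRNA. The groups overlapped and the gene was not called (log2 fold change -0.06, 95% interval -0.14 to 0.01, limma adjusted p = 0.137), although it was called lower under median-ratio scaling (adjusted p = 0.0412), equal library sums (0.0433) and voom (0.0291), and without VprBP shRNA replicate 3, with an adjusted p of 0.0232. MANF, a small ER stress protein that binds BiP and can be secreted, rose to 91.7 ± 2.45 with VprBP shRNA, against 81.6 ± 0.365 with control shRNA (SD, n = 3 each; limma adjusted p = 0.00218). CRELD2, another secreted ER stress protein, had 38.7, 37.3 and 31.9 with VprBP shRNA and 30.2, 32.2 and 30.5 with control shRNA. Its groups overlapped by the value of VprBP shRNA replicate 3, and its call (limma adjusted p = 0.0163) was lost without VprBP shRNA replicate 1 or 2 or control replicate 1, with adjusted p from 0.0602 to 0.1.

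Of 6 disulfide isomerases and reductases, 3 rose, 1 fell and 2 were not called, beside 33.0% of all genes called higher and 27.8% lower. DNAJC10, also called ERdj5, the reductase that opens disulfides before degradation, showed the biggest rise of the 33. Its values were 178, 168 and 183 with VprBP shRNA and 123, 131 and 114 with control shRNA, without overlap, at 1.44 times the control mean (log2 fold change 0.53, SE 0.05, limma adjusted p = 1.29e-07). P4HB rose to 764 ± 16.7, against 629 ± 12.5 in control shRNA cells, a ratio of 1.21 (SD, n = 3 each; limma adjusted p = 8.52e-07). PDIA3, the isomerase that works with calnexin and calreticulin, rose by less, at 469.7 ± 19.9 with VprBP shRNA and 429 ± 16.0 with control shRNA (SD, n = 3 each; limma adjusted p = 0.00627). GENCODE 29 names 2 pseudogene copies of PDIA3, so that reads shared with them could move its value. PDIA5, which is known to help activate ATF6, fell to 38.0 ± 2.44 with VprBP shRNA, against 47.5 ± 1.36 with control shRNA (SD, n = 3 each; limma adjusted p = 1.56e-04). PDIA4 (log2 fold change 0.02, 95% interval -0.04 to 0.09) and PDIA6 (0.02, interval -0.05 to 0.09), which also limits IRE1 signalling, were not called, and both had negative log2 fold changes under median-ratio scaling.

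The lectin chaperones rose and their folding sensor fell. CALR had values of 1078, 1056 and 1066 with VprBP shRNA and 889, 873 and 893 with control shRNA, without overlap and at a ratio of 1.21 (log2 fold change 0.27, SE 0.03, limma adjusted p = 5.17e-07). CANX, the membrane-bound counterpart calnexin, was 776 ± 29.6 with VprBP shRNA and 708 ± 10.8 with control shRNA (SD, n = 3 each; limma adjusted p = 0.00226). UGGT1, which re-glucosylates misfolded glycoproteins so that the lectins bind them again, was 140.3 ± 5.67 and 162 ± 0.766 in VprBP shRNA and control shRNA cells (SD, n = 3 each; limma adjusted p = 2.07e-04).

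Genes of degradation from the ER moved both ways. The channel proteins DERL1 and DERL2 rose, and so did OS9, a lectin that passes glycoproteins to the HRD1 ligase. DERL2 had values of 25.7, 27.3 and 26.6 with VprBP shRNA and 19.3, 19.5 and 17.1 with control shRNA, without overlap (log2 fold change 0.50, SE 0.07, limma adjusted p = 1.62e-05). DERL1 averaged 264 ± 2.67 with VprBP shRNA and 228 ± 5.71 with control shRNA, and OS9 averaged 203 ± 6.49 and 172 ± 4.32 in the same order (SD, n = 3 each). The ligase SYVN1 (HRD1) and its partner SEL1L were not called, with log2 fold changes of -0.05 (95% interval -0.15 to 0.05) and 0.01 (interval -0.09 to 0.11), the second of which was negative under other scalings. HERPUD1, an ER stress-induced organiser of the ligase complex, had 33.8, 34.9 and 35.3 with VprBP shRNA and 41.7, 42.4 and 42.1 with control shRNA. Its libraries were tight within each group and did not overlap between them (log2 fold change -0.27, SE 0.05, limma adjusted p = 2.60e-04). Together with EDEM1, 2 of the 7 degradation genes fell, 3 rose and 2 were not called. These counts stand beside 27.8% of all genes called lower and 33.0% higher.

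Both genes among the 33 that encode the protein-conducting channel rose, beside 33.0% of all genes called higher and 27.8% lower. SEC61A1, its pore subunit, had values of 323, 328 and 318 with VprBP shRNA and 246, 242 and 242 with control shRNA, without overlap (log2 fold change 0.41, SE 0.03, limma adjusted p = 1.41e-08). SEC61B, a small subunit, had 40.7, 38.2 and 35.0 with VprBP shRNA and 35.0, 28.5 and 30.7 with control shRNA. VprBP shRNA replicate 3 lay just below control replicate 1, so that the groups overlapped, and SEC61B was called (log2 fold change 0.27, SE 0.08, limma adjusted p = 0.00513). WFS1, the wolframin protein of ER calcium balance, rose to 82.3 ± 4.31 with VprBP shRNA, against 71.4 ± 2.71 with control shRNA (SD, n = 3 each; limma adjusted p = 0.00184).

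**Figure D4:**
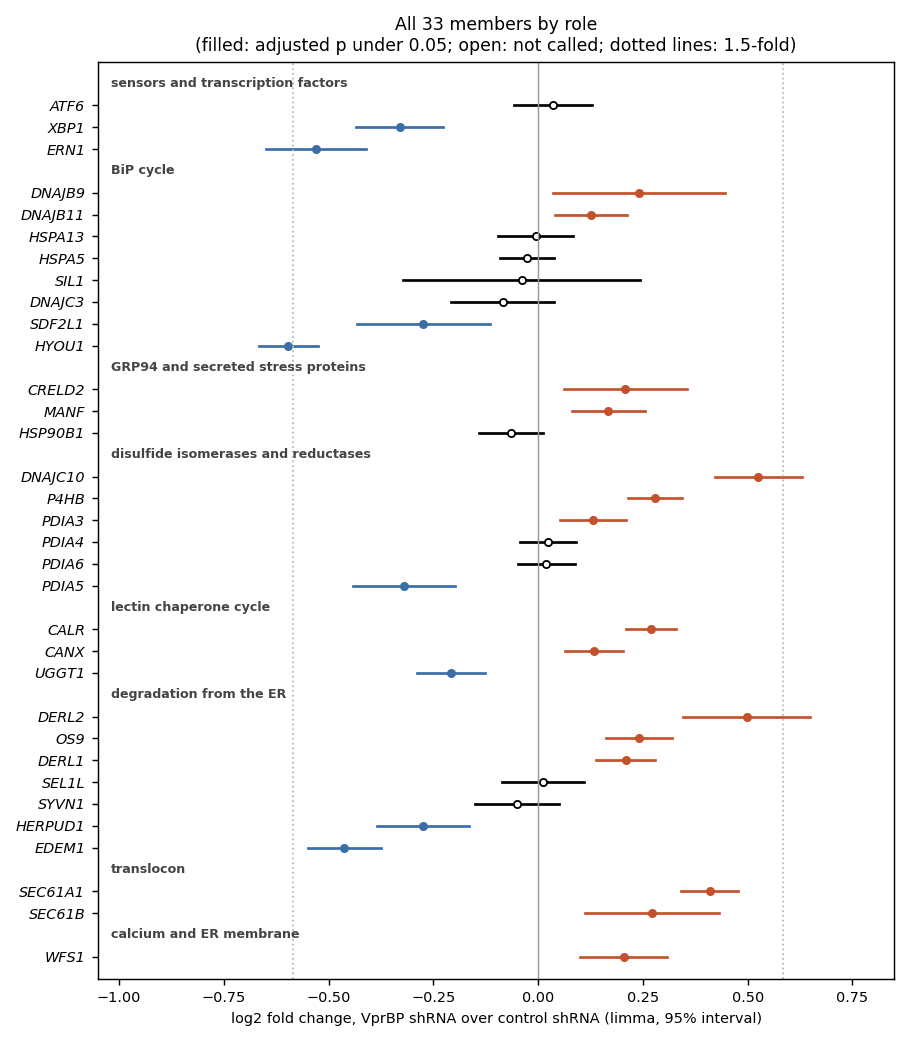
Log2 fold change of VprBP shRNA over control shRNA with its limma 95% interval for all 33 genes, grouped by role (filled, adjusted p under 0.05; open, not called; dotted lines at 1.5-fold). Among called genes, 15 lie to the right, up to DNAJC10 at 0.53, and 8 to the left, down to HYOU1 at -0.60, and no interval lies wholly beyond a dotted line.

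Other genes of the same pathway were taken from lists by function, 180 listed genes in all, of which 83 rose, 37 fell and 60 were not called. Of all listed genes, 60.9% were called, 33.0% higher and 27.8% lower. The share called in either direction is thus near that of all genes, but the calls lean further toward higher. The median log2 fold change of these 180 genes was 0.11, against 0.02 over all listed genes. Signal recognition and translocation had 22 other listed genes, 16 of them higher, 0 lower and 6 not called, and the median log2 fold change was 0.18. SEC11C, a signal peptidase subunit, rose to 30.0 ± 0.974 with VprBP shRNA, against 18.9 ± 0.854 with control shRNA, and SEC61G, the third channel subunit, to 85.5 ± 4.25 against 57.3 ± 3.48 (SD, n = 3 each). Oligosaccharyltransferase, which attaches N-glycans beside the channel, had 8 of 12 genes higher, 0 lower, 4 not called and a median of 0.21. Both counts stand beside the 33.0% higher and 27.8% lower of all genes. Its subunit genes RPN1 and OSTC rose 1.28-fold and 1.27-fold. Called lower in these lists were 0 genes by limma at an adjusted p, 0 at an unadjusted p under 0.05 and 0 by limma-voom, and no gene of either list passed the treat test. Short genes were higher on the whole in this comparison, with a median log2 fold change of 0.07 in the fifth of all genes with the shortest exonic length and -0.07 in the fifth with the longest. The median exonic length was 4608 bases for translocation genes, 3447 for oligosaccharyltransferase genes and 5056 for all genes with a length, and the part of length in these counts was not tested.

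In the PERK and ATF4 branch, 9 of 14 genes fell, 2 rose and 3 were not called, where 27.8% of all listed genes were called lower and 33.0% higher. The median log2 fold change was -0.26, and 4 fell past 1.5-fold by the treat test, as did 2.90% of all listed genes. ATF4, the transcription factor of the branch, averaged 438 in VprBP shRNA cells and 576 in control shRNA cells (log2 fold change -0.40, SE 0.03, limma adjusted p = 9.91e-09), and was named after its value was seen. The 4 genes past 1.5-fold were CHAC1, DDIT4, SESN2 and ASNS, each a known ATF4 or stress target. CHAC1, a glutathione-degrading enzyme, was 13.2 ± 0.275 with VprBP shRNA and 33.1 ± 1.22 with control shRNA, and DDIT4, an inhibitor of mTORC1, was 168 ± 8.49 and 308 ± 7.82 in the same order (SD, n = 3 each). PPP1R15A, the subunit that directs dephosphorylation of eIF2 alpha, rose to 49.5 ± 4.34, against 33.1 ± 1.08 with control shRNA, and EIF2S1, which encodes eIF2 alpha, rose 1.19-fold (SD, n = 3 each). The sensor EIF2AK3 (PERK) and the apoptosis-linked factor DDIT3 (CHOP), both named after their values were seen, were not called, with log2 fold changes of -0.01 and 0.00.

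Partners of the other branches moved both ways, in lists of 9 and 8 genes. The counts of both lists stand beside 33.0% of all genes called higher and 27.8% lower. A share near these is no result about a list. Among 9 genes of the ATF6 branch and its relatives, 3 rose, 3 fell and 3 were not called. MBTPS1, the site-1 protease that cleaves ATF6, was 151 ± 2.14 with VprBP shRNA and 176 ± 3.40 with control shRNA, while CREB3, a factor released by the same kind of cleavage, was 33.4 ± 0.697 and 19.9 ± 1.54, and CREB3L2 was 70.4 ± 3.21 and 94.8 ± 4.17, each in that order of groups (SD, n = 3 each). NFYB, a subunit of the CCAAT-binding factor that shares ERSE with ATF6, rose 1.24-fold. Of 8 IRE1 partners, 3 rose, 2 fell and 3 were not called. RTCB, the ligase that joins the cut XBP1 mRNA, rose 1.14-fold, and so did TMBIM6, an ER membrane protein that restrains IRE1, by 1.15-fold. MAP3K5, the kinase ASK1 that acts downstream of IRE1, fell to 16.3 ± 1.75 with VprBP shRNA, against 29.3 ± 0.690 with control shRNA (SD, n = 3 each). It passed the test against 1.5-fold only narrowly (limma treat adjusted p = 0.0485). SEC63, a translocation J-protein, was 0.921 of its control mean.

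Folding and degradation lists beyond the 33 were mixed, and their counts stand beside 33.0% of all genes called higher and 27.8% lower, so that a share near these is no result about a list. Of 18 disulfide exchange genes, 10 rose and 4 fell, with TXNDC15 1.74-fold and the sulfhydryl oxidase QSOX1 1.59-fold higher, and QSOX2 and CRELD1 at 0.727 and 0.720 of control. Of 33 further degradation genes, 14 rose and 7 fell. UBXN8 and UFD1, both partners of the p97 ATPase, rose 1.49-fold and 1.30-fold, and the ER ligase gene TMEM129 and FAM8A1, a cofactor of HRD1, were at 0.573 and 0.697 of control. Of 9 genes of glycan trimming and the lectin cycle, 2 rose and 4 fell, with PRKCSH, the beta subunit of glucosidase II, and the lectin gene MLEC higher by 1.19-fold and 1.09-fold, and LMAN1, a cargo lectin for export, and MOGS, which is glucosidase I, at 0.796 and 0.805 of control. Of 7 prolyl isomerase genes, 3 rose and 1 fell, with FKBP2 and PPIC 1.24-fold higher and FKBP14 at 0.865 of control. Of 18 further J-proteins, membrane insertion factors and cofactors, 8 rose and 2 fell, with EMC7 and DNAJC1 1.30-fold and 1.29-fold higher and EMC6 and EMC1 at 0.865 and 0.872 of control.

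**Figure D5:**
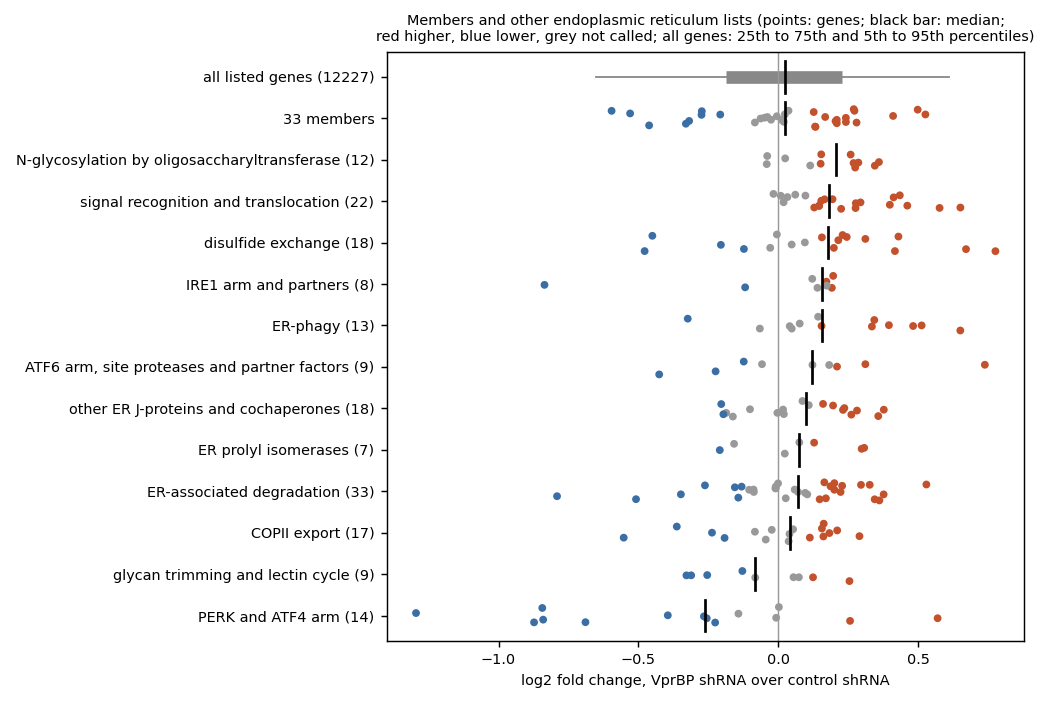
Log2 fold changes of VprBP shRNA over control shRNA for the 33 members and 12 other ER lists (points are genes, red higher, blue lower, grey not called; black bars are medians), below the percentiles of all 12227 genes. Oligosaccharyltransferase and translocation genes have medians of 0.21 and 0.18 with no lower call, and the PERK and ATF4 list has a median of -0.26.

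The 6 genes with the biggest changes have these places on hg38. HYOU1 (ENSG00000149428.21) spans 119044188 to 119057227 of chromosome 11, ERN1 (ENSG00000178607.17) spans 64039080 to 64130819 of chromosome 17 and EDEM1 (ENSG00000134109.11) spans 5187646 to 5219958 of chromosome 3. DNAJC10 (ENSG00000077232.19) spans 182716255 to 182794464 of chromosome 2, DERL2 (ENSG00000072849.11) spans 5471254 to 5486811 of chromosome 17 and SEC61A1 (ENSG00000058262.11) spans 128051641 to 128071705 of chromosome 3. Of the 33 genes, 17 share exonic bases with a gene on the opposite strand in GENCODE 29, among them HYOU1, EDEM1, DERL2 and SEC61A1. The sources used here state no strand setting, so reads of such partners cannot be told apart.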

How the data were processed

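Libraries were made from total RNA of PC3 cells, 3 per group, with a SMARTer mRNA-seq kit per the labels' protocols. Partek and the build hg38 are named per the submitters' processing notes, and no source used here gives the aligner, quantifier, annotation or strand setting. The deposited values are a signal, not raw counts: judged from the values themselves, they are estimated reads times a factor that leaves the 75th percentile near 79.0 in every library. How they were scaled is not stated. The value of 1 read was 0.0254 to 0.0439, and 55.5% to 65.0% of the values were whole multiples of it within 0.02 reads, so no count model was used.

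limma 3.58.1 in R 4.3.3 was fitted to log2(value + 0.5) over all 12227 genes with a mean-dependent prior variance, with no further filter, two-sided, and treat at a fold of 1.5. The scale understates changes of low genes. The code was tested on simulated data with known answers. The highest library of every listed gene had at least 150 estimated reads, so rarer genes were not analysed here. Within groups, libraries were further apart than counting error allows (chi-square per degree of freedom 3.39 to 6.69).

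The members and lists were chosen with earlier results of these data known. Values in every library are given for the members with the 3 largest changes in each direction and for 7 textbook reporters of the response, and for SDF2L1, CRELD2, CALR and SEC61B, which were added after their values were seen. From each other list, up to 2 called genes per direction with the largest change and a mean of at least 5 are named. SESN2 and ASNS are named beyond that rule, as genes past 1.5-fold by the treat test. ATF4, EIF2AK3 and DDIT3 were added after their values were seen. Exon lengths came from GENCODE 29 and promoters from RefSeq. Coordinates are those of the table, with the end reduced by 1. Alternatives were a pseudocount of 0.1 or 2, a mean of at least 5, median-ratio scaling, equal library sums, limma-voom on estimated reads with trimmed-mean scaling, a replicate block, and each library left out.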

Additional observations from a re-analysis of the deposited data

How the results depend on the processing

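Over 13 alternatives, 20 of the 23 called genes kept direction and call, and the exceptions were DNAJB9, DNAJB11 and CRELD2. Members called higher numbered 14 to 15 under other settings and 12 to 15 with a library left out, members called lower 8 to 9, and none passed 1.5-fold in any. All called genes numbered 6697 to 7405 with a library left out and 7042 to 7505 otherwise. In the main fit 4037 of all genes were called higher and 3404 lower. Median-ratio scaling gave 3723 and 3717, equal library sums 3751 and 3681, and voom 3758 and 3747. The excess of higher calls thus depends on the scaling. The median log2 fold change over all genes was 0.0239 in the main fit and -0.001 under median-ratio scaling. DNAJB9 was not called under median-ratio scaling (adjusted p = 0.0637) or equal library sums (0.0622), nor without VprBP shRNA replicate 1 (0.0754) or 2 (0.130) or control replicate 1 (0.0974) or 3 (0.210), and the cause was not tested.

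Signs turned in genes that were not called. With median-ratio scaling, the log2 fold changes were -0.0023 for PDIA4, -0.0062 for PDIA6 and -0.0138 for SEL1L. Equal library sums gave -0.0037 for PDIA6 and -0.0112 for SEL1L, and voom gave -0.0020 for PDIA4, -0.0047 for PDIA6 and -0.0188 for SEL1L. With a library left out, values ran from -0.0300 to 0.0610 for SEL1L, from -0.0276 to 0.0164 for HSPA13 and from -0.0802 to 0.0079 for SIL1. At the low depth of SIL1, changes within its interval were not detectable. Same-numbered libraries of both groups did not deviate together (r from -0.168 to 0.018 across genes), so the numbers were not used as pairs. Differently numbered libraries had r from -0.0809 to 0.185. Deviations from a mean of 3 libraries constrain one another, so these correlations are not independent. With the replicate block, 7042 genes were called, and the pairing changed no call among the 33 genes.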

Other observations

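Export from the ER and its turnover gave further values, beside 60.9% of all listed genes called, 33.0% higher and 27.8% lower. The shares called in both lists were near that of all genes. Of 17 genes of COPII export, which buds vesicles toward the Golgi, 7 rose, 4 fell and 6 were not called, and the median log2 fold change was 0.04. MIA3 (TANGO1), which exports collagens, was at 78.1 ± 3.26 with VprBP shRNA and 115 ± 3.60 with control shRNA, and the cargo adaptor SEC24A at 37.4 ± 0.450 and 48.3 ± 3.53 in the same order (SD, n = 3 each). The SNARE gene SEC22B and the coat gene SEC13 rose 1.22-fold and 1.16-fold.

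Of 13 genes of ER-phagy and UFMylation, 7 rose, 1 fell and 5 were not called, and the median log2 fold change was 0.15. DDRGK1, an adaptor that guides UFM1 conjugation at the ER, rose to 64.0 ± 1.71 with VprBP shRNA, against 40.6 ± 2.15 with control shRNA, and the ER-phagy receptor TEX264 to 36.9 ± 1.21 against 25.7 ± 0.773 (SD, n = 3 each). CALCOCO1, another such receptor, was at 0.793 of its control mean.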
